A study of Oryctolagus cuniculus with 16 samples.

Results

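The 5 genes described here are the annotated genes of the rabbit mitochondrial genome that are at least 200 bases long and start below position 7000. They are 5 of the 23669 genes in the count tables. In the order of their positions they are the 12S and 16S ribosomal RNAs (rRNAs), ND1, ND2 and COX1. The files pair no names with their identifiers, so the names follow from the gene order that mammalian mitochondrial genomes share. The libraries came from cells sorted at day 7 from the brains of premature New Zealand rabbit kits with moderate-to-severe intraventricular haemorrhage (IVH), bleeding into the brain's fluid-filled ventricles. Microglia, the resident immune cells of the brain, were sorted as CD11b-positive cells with low CD45. Oligodendrocyte progenitor cells (OPC), the precursors of myelin-forming cells, were sorted by the surface marker O4.

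Each kit had been given an adenovirus into a ventricle, 5 µl in volume, with the viral cargo under the CMV promoter, which is not specific to a cell type. The Ad-PPARg virus carried PPARg, a lipid-activated nuclear receptor, together with green fluorescent protein, and the control virus Ad-GFP carried green fluorescent protein alone. Haemorrhage, adenovirus and the fluorescent protein were thus shared by all groups, and no kit without haemorrhage or virus is among these libraries. Each of the 4 groups (microglia Ad-PPARg, microglia Ad-GFP, OPC Ad-PPARg, OPC Ad-GFP) had 4 libraries, each from another animal. The 16 libraries came from 10 animals, and 6 of the animals gave both cell types. The cell types could not be checked against their defining markers, because those genes carry no names in the files. In bulk RNA of this kind, fewer cells of a type and less RNA per cell cannot be told apart.

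The mitochondrial genome is a small circle that is copied from both strands into long RNAs, which are then cut into single RNAs, mostly at the transfer RNAs that lie between the larger genes. 12S rRNA is the RNA of the small subunit of the mitochondrial ribosome, and 16S rRNA is that of its large subunit. ND1 and ND2 encode membrane subunits of complex I, the NADH dehydrogenase of the respiratory chain, and COX1 encodes the catalytic subunit of complex IV, cytochrome c oxidase. In total RNA of a tissue the mitochondrial rRNAs are usually far more abundant than the messenger RNAs (mRNAs) of the same genome. Selection of poly(A) tails lowers them, and depletion of rRNA lowers them where it targets the mitochondrial rRNAs. Which step was used here, if any, is not given in the sources used here.

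All 5 genes lie on the plus strand as a single exon, in coordinates as the files give them (the genome build is not given in the sources used here). 12S rRNA (ENSOCUG00000029082) spans MT:70-1026 with 957 bases and 16S rRNA (ENSOCUG00000029084) spans MT:1093-2671 with 1579 bases. ND1 (ENSOCUG00000029086) spans MT:2749-3703, ND2 (ENSOCUG00000029090) spans MT:3920-4963 and COX1 (ENSOCUG00000029096) spans MT:5354-6895. Between neighbours lie 66, 77, 216 and 390 bases that hold 1, 1, 3 and 5 short annotated genes, of the size of transfer RNAs. The next gene of at least 200 bases starts at position 7039, and the longest gene below the length limit has 75 bases. Summed over all 16 libraries, the 5 genes took 1.42% of the counts, and the 10 genes of at least 200 bases past position 7000 took 1.00%. The 22 short mitochondrial genes took 0.0072%.

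Library totals ranged from 6242342 to 17608855 counts, and the lowest count of a member was 1848. Counting error was therefore small: the share of the 5 genes was 0.892% in microglia Ad-PPARg replicate 2 (95% Wilson interval 0.887 to 0.897%), the lowest of the 16. Such intervals cover counting error only. Levels below are in CPM, the counts of a gene scaled to a raw library total of 1000000, and levels of different genes are compared per kilobase of gene length. Nuclear copies of mitochondrial sequence could share reads with these genes, and how multi-mapped reads were counted is not given in the sources used here.

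In 5 libraries the mitochondrial genome was counted almost only below position 7000. These were microglia Ad-PPARg replicates 1 and 2, microglia Ad-GFP replicate 1 and OPC Ad-PPARg replicates 1 and 4. There the 10 genes past position 7000 together had 50.9 to 107 CPM, against 8696 to 19476 CPM in the other 11 libraries. The first part of the animal identifiers takes 6 values, of which 3 hold these 5 libraries and the other 3 hold the other 11. These 3 values fall on both treatments, but each value belongs to 1 treatment, so that none gives a treatment comparison of its own, and what it stands for is not given. The 5 members showed no such gap: COX1 had 7079 to 17492 CPM in these 5 libraries and 7313 to 15482 CPM in the other 11. Microglia Ad-PPARg replicate 2, one of the 5, nevertheless had the lowest 12S rRNA, ND2 and COX1 of all 16. The members took 99.3 to 99.6% of the counts on mitochondrial genes of at least 200 bases in these libraries. Short genes on the minus strand between ND2 and COX1 (starts 5040 to 5281) were also low in the 5 libraries, at 2.18 to 6.57 CPM in sum against 32.2 to 185 CPM elsewhere. Short genes on the plus strand below position 7000 were low too, at 1 to 9 counts in sum against 18 to 97. Not low were the minus-strand gene at start 3771 (4 to 18 counts against 2 to 19) and the plus-strand gene at 3851 (1 to 8 against 0 to 7). The cause was not tested, and results are given with and without these libraries where they differ.

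**Figure D1:**
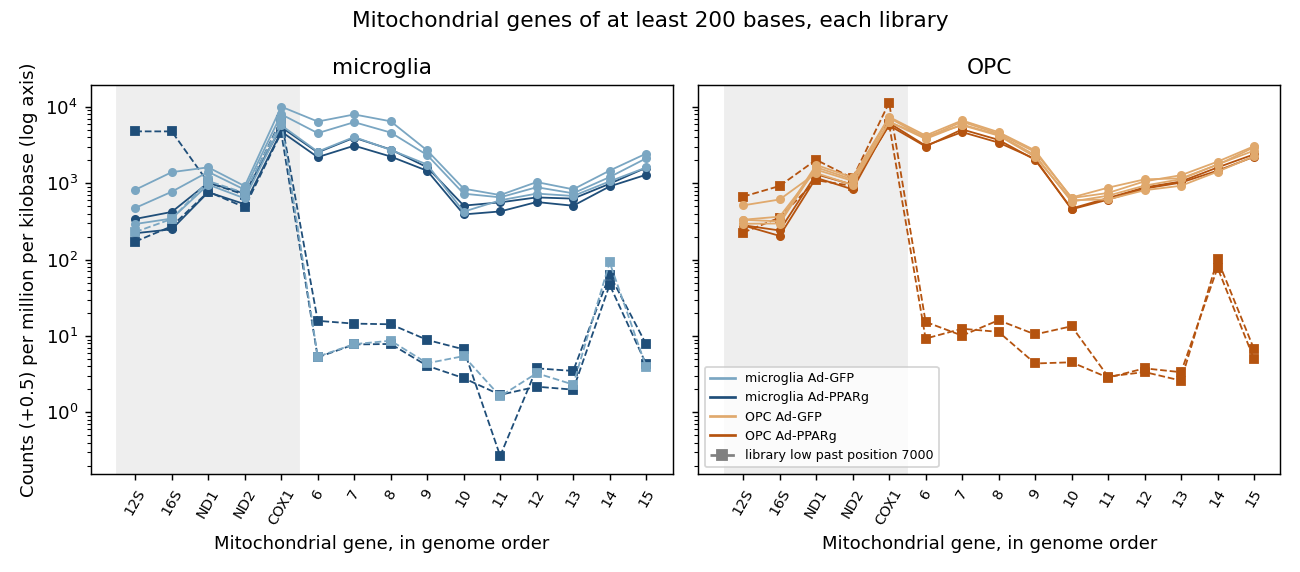
Level of each mitochondrial gene of at least 200 bases in genome order, in CPM per kilobase (0.5 counts added) on a log axis, one line per library, microglia on the left and OPC on the right. The shaded members 12S rRNA to COX1 were counted in all 16 libraries, while the 5 dashed libraries fell at the genes past position 7000, from 8696 to 19476 CPM in the other 11 to at most 107 CPM in sum.

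COX1 had the highest level per kilobase of the 5 genes in 16 of 16 libraries. It stood at 4591 to 11344 CPM per kilobase, and its ratio to ND1 per kilobase was 4.25 to 6.66. ND1 was above ND2 in 16 of 16 libraries, by a ratio of 1.19 to 1.76, although both encode subunits of the same complex and lie next to each other. The rRNAs were mostly the lowest of the 5: ND1 was above 12S rRNA and above 16S rRNA in 15 of 16 libraries each, and ND2 was above 12S rRNA in 15 and above 16S rRNA in 14. 16S rRNA was above 12S rRNA in 12 of 16 libraries, with a ratio of 0.728 to 1.70, so these neighbours in the order did not keep a fixed order. Of the counts on the 5 genes, COX1 took a median of 77.3% in microglia and 75.8% in OPC.

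**Figure D2:**
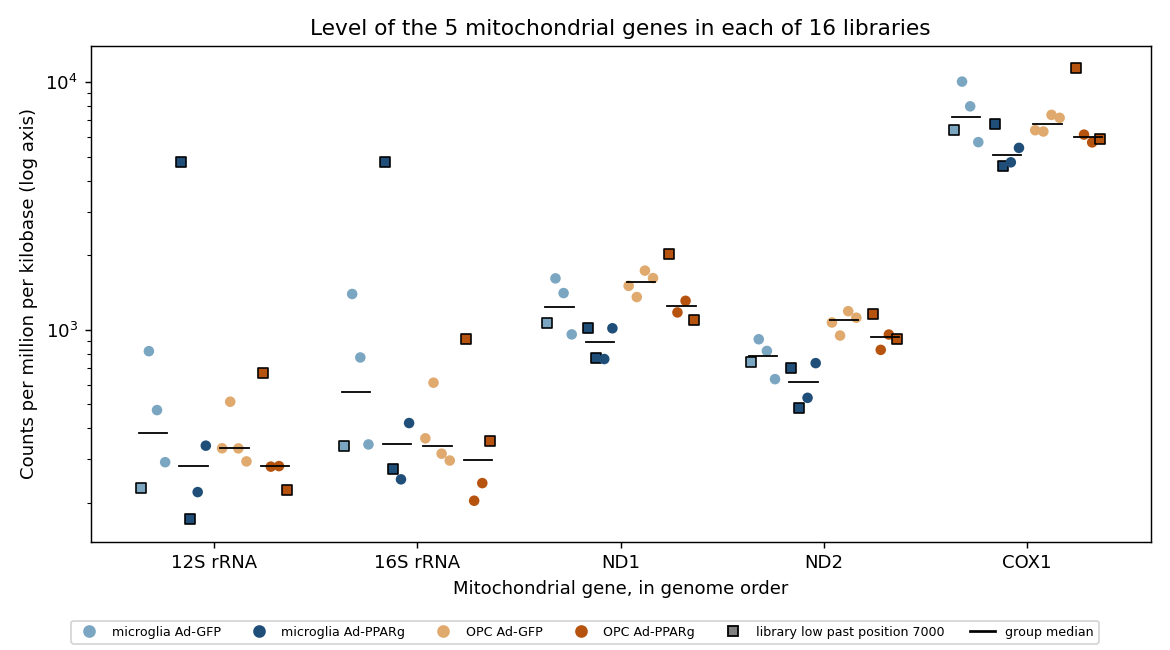
Level of each of the 5 genes in every library in CPM per kilobase on a log axis, coloured by sorted cell type and treatment, with a bar at the median of each group of 4 and squares for the 5 libraries low past position 7000. COX1 is highest in all 16 libraries, and microglia Ad-PPARg replicate 1 stands above all others in 12S and 16S rRNA at 4768 and 4763 CPM per kilobase.

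The small-subunit RNA, 12S rRNA, had 220, 785, 454 and 280 CPM in microglia Ad-GFP replicates 1 to 4. In microglia Ad-PPARg replicates 1 to 4 it had 4563, 165, 212 and 326 CPM. Replicate 1 of that group was 5.81 times the highest of the other 15 libraries, and its other 3 replicates lay within or below the range after Ad-GFP. In OPC, 12S rRNA had 318, 491, 318 and 282 CPM after Ad-GFP and 639, 268, 270 and 216 CPM after Ad-PPARg. The OPC groups overlapped, and the highest OPC library came from the animal that also gave the extreme microglia library.

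The large-subunit RNA, 16S rRNA, had 538, 2203, 1221 and 544 CPM in microglia Ad-GFP replicates 1 to 4. After Ad-PPARg, microglia had 7520, 431, 394 and 664 CPM. Again replicate 1 stood apart, at 3.41 times the highest of the other 15 libraries, and replicates 2 and 3 of the control group were the next highest microglia. OPC had 576, 966, 500 and 469 CPM after Ad-GFP and 1452, 323, 380 and 561 CPM after Ad-PPARg. These OPC groups overlapped as well, with the highest and the lowest library both after Ad-PPARg.

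ND1, the first mRNA after the rRNAs, had 1020, 1540, 1344 and 915 CPM in microglia Ad-GFP replicates 1 to 4. Microglia Ad-PPARg replicates 1 to 4 had 972, 738, 728 and 969 CPM. All 4 of the latter were below the 3 highest controls, and only the lowest control lay among them. OPC had 1437, 1295, 1656 and 1544 CPM after Ad-GFP and 1934, 1123, 1251 and 1045 CPM after Ad-PPARg. In OPC 3 of the 4 Ad-PPARg libraries were below every control library and replicate 1 was above all of them.

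ND2, the second complex I subunit, had 777, 956, 858 and 660 CPM in microglia after Ad-GFP and 736, 505, 555 and 766 CPM after Ad-PPARg. The ranges overlapped through the lowest control. OPC had 1118, 990, 1241 and 1169 CPM after Ad-GFP and 1211, 867, 999 and 961 CPM after Ad-PPARg. Among the 5 genes, ND2 spread least between libraries in each cell type: the highest was 1.89 times the lowest over the 8 microglia libraries and 1.43 times over the 8 OPC libraries.

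COX1, the complex IV subunit, had 9903, 15482, 12303 and 8822 CPM in microglia after Ad-GFP and 10461, 7079, 7313 and 8364 CPM after Ad-PPARg. Here 3 of the 4 Ad-PPARg libraries lay below every control, and replicate 1 lay among them. OPC had 9854, 9737, 11366 and 11059 CPM after Ad-GFP and 17492, 9459, 8801 and 9107 CPM after Ad-PPARg. OPC Ad-PPARg replicate 1 was the highest of all 16 libraries, and the other 3 of its group were below every OPC control.

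In microglia, none of the 5 genes passed the test between treatments (edgeR's quasi-likelihood test with Benjamini-Hochberg adjustment over 13041 genes). No gene of the whole table did (0 called, 0%), while 1488 genes, or 11.4%, had an unadjusted p under 0.05 and DESeq2 called 121. The log2 fold change of Ad-PPARg over Ad-GFP was -0.58 (SE 0.19, edgeR adjusted p = 0.418) for ND1, -0.42 (SE 0.18, adjusted p = 0.427) for ND2 and -0.57 (SE 0.20, adjusted p = 0.418) for COX1. These 3 mRNAs had unadjusted p values of 0.0138, 0.0404 and 0.0170 in the edgeR fit. The groups did not separate in CPM for any of the 5 genes, where 4.88% of all genes tested did.

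The rRNAs in microglia had log2 fold changes of 1.47 (SE 1.10, edgeR adjusted p = 0.601) for 12S and 0.88 (SE 1.02, adjusted p = 0.743) for 16S. Both values rested on a single library: without microglia Ad-PPARg replicate 1 they turned to -0.93 (SE 0.44, adjusted p = 0.492) and -1.22 (SE 0.51, adjusted p = 0.464). The mRNAs kept their sign without it, at -0.62, -0.47 and -0.67 for ND1, ND2 and COX1. Without all 5 libraries low past position 7000, which leaves 2 Ad-PPARg against 3 Ad-GFP libraries, the 5 genes were fitted at -0.93, -1.34, -0.60, -0.34 and -0.67 in genome order, and the smallest edgeR adjusted p was 0.401. Beside the members, the 10 mitochondrial genes past position 7000 were all fitted lower after Ad-PPARg in microglia (median log2 -1.16, 0 called), where 2 of 4 Ad-PPARg and 1 of 4 Ad-GFP libraries were those low on these genes.

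In OPC none of the 5 genes passed either (edgeR, 13492 genes tested, 0 called, 0%). At an unadjusted p under 0.05 there were 166 genes, or 1.23%, none of them a member, and DESeq2 called 7 genes. The log2 fold changes of Ad-PPARg over Ad-GFP were 0.03 (SE 0.34) for 12S, 0.18 (SE 0.48) for 16S, -0.10 (SE 0.22) for ND1, -0.11 (SE 0.17) for ND2 and 0.14 (SE 0.25) for COX1, all smaller than their SE. The groups overlapped for every member, against 1.2% of all genes that did not overlap. OPC Ad-PPARg replicate 1 decided the sign for several of them: without it 12S was at -0.45, 16S at -0.49 and COX1 at -0.15. Without all libraries low past position 7000 (2 Ad-PPARg against 4 Ad-GFP) the values were -0.44, -0.88, -0.37, -0.32 and -0.25 in genome order, with edgeR adjusted p from 0.221 to 0.451. The 10 genes past position 7000 had a median of -1.29 in all 8 libraries (0 called), with 2 of 4 Ad-PPARg libraries and no control among those low on them.

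The treatment effects did not differ detectably between the cell types (edgeR interaction test over 14699 genes, 0 called, 0%; 402 genes or 2.73% at an unadjusted p under 0.05; DESeq2 2). The OPC effect minus the microglia effect was largest in size for 12S at -1.34 (SE 1.12, edgeR adjusted p = 0.997), and it was 0.70 (SE 0.34, unadjusted p = 0.0570, the same adjusted p) for COX1. Without microglia Ad-PPARg replicate 1 the value of 12S was 0.89. The value of COX1 was 0.40 without OPC Ad-PPARg replicate 1 (unadjusted p = 0.171, edgeR) and 0.39 without the 5 libraries low past position 7000 (unadjusted p = 0.273).

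In the fit of all 16 libraries the cell types differed in the rRNAs. Relative to the scaled library totals, 12S rRNA was lower in OPC than in microglia, at -1.55 on the log2 scale (SE 0.57, adjusted p = 0.0240 in edgeR), and so was 16S rRNA, at -1.72 (SE 0.58, adjusted p = 0.0155). Mean raw levels were 350 ± 142 CPM in OPC against 875 ± 1503 CPM in microglia for 12S, and 653 ± 377 against 1689 ± 2433 CPM for 16S (SD, n = 8 each). The microglial means include microglia Ad-PPARg replicate 1, at 4563 and 7520 CPM. The raw medians were closer, at 300 CPM in OPC against 303 CPM in microglia for 12S, and 530 against 604 CPM for 16S. ND1 and ND2 did not pass, at -0.05 (SE 0.16, adjusted p = 0.804) and 0.05 (SE 0.14, adjusted p = 0.783), nor did COX1 at -0.37 (SE 0.17, adjusted p = 0.0645). Thus 2 of the 5 members were called, both lower, where 68.5% of the 14699 genes tested were called, 35.1% higher and 33.4% lower (70.9% had an unadjusted p under 0.05). Their CPM ranges overlapped between the cell types for all 5 members, while 46.7% of the genes tested did not overlap.

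The calls of the rRNAs depended on which libraries were used. Without microglia Ad-PPARg replicate 1 alone, neither passed: 12S was at -0.43 (SE 0.30, edgeR adjusted p = 0.218) and 16S at -0.75 (SE 0.38, adjusted p = 0.0972). Without microglia Ad-GFP replicate 2, the next highest library, 12S was at -1.33 (adjusted p = 0.0543) and 16S still passed. With all 5 libraries low past position 7000 left out, microglia Ad-PPARg replicate 1 among them, both passed, at -0.91 (adjusted p = 0.0108) for 12S and -1.48 (adjusted p = 0.00294) for 16S, and COX1 then passed too, at -0.64 (adjusted p = 0.00519). In that fit 68.9% of all genes tested were called. Leaving out these 5 libraries was chosen after seeing the data. Without them the share of counts on the 2 rRNAs differed by -0.056 percentage points between OPC and microglia (two-sided exact permutation p = 0.199). The scaling of libraries moved all values: with raw library totals the median gene shifted from -0.01 to 0.51, and the genes called higher and lower went from 5156 and 4915 to 7610 and 3227. On that scale 12S was at -1.11 (adjusted p = 0.108), 16S at -1.29 (adjusted p = 0.0674), ND1 at 0.48 (adjusted p = 0.00954), ND2 at 0.56 (adjusted p = 0.000448) and COX1 at 0.14 (adjusted p = 0.457). Relative to the median gene, the rRNAs were thus lower in OPC under both scalings, and ND1 and ND2 lay near the median gene.

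**Figure D3:**
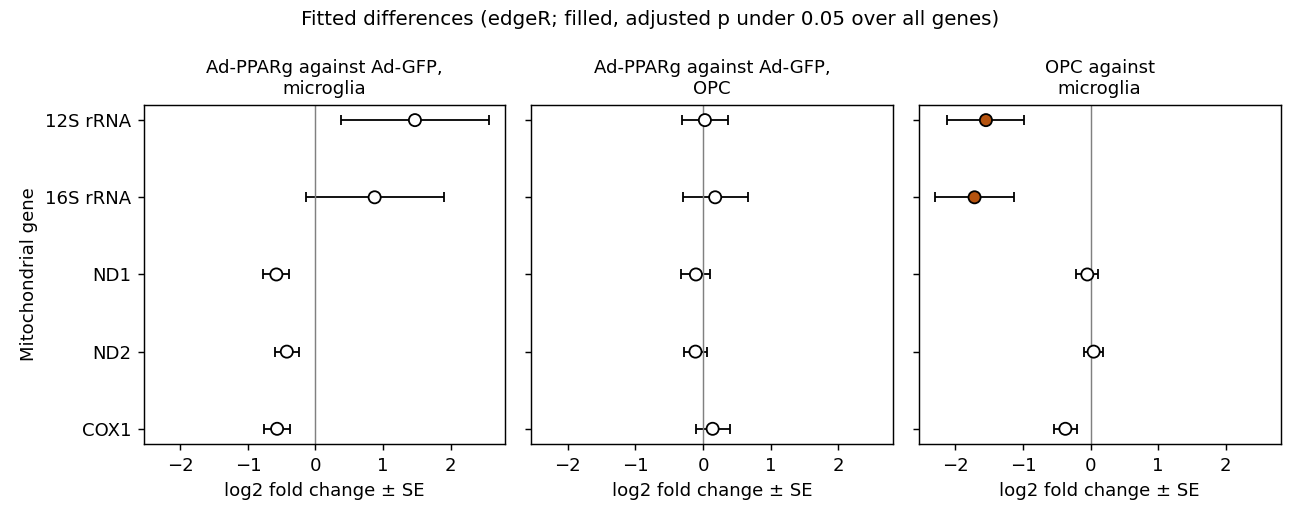
Fitted log2 fold changes of the 5 genes with their SE (bars) for Ad-PPARg against Ad-GFP in microglia and in OPC and for OPC against microglia, with filled points for an edgeR adjusted p under 0.05 over all genes tested. Only 12S and 16S rRNA between the cell types are filled, at -1.55 and -1.72, and their bars in microglia are the widest, with SE of 1.10 and 1.02.

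The ratio of rRNA to mRNA compares genes of the same genome within a library and so does not depend on the library total. It was formed from the summed counts of 12S and 16S per kilobase of their summed length, over the same for ND1, ND2 and COX1. In microglia it was 0.0904, 0.232, 0.161 and 0.111 in Ad-GFP replicates 1 to 4 and 1.39, 0.100, 0.0983 and 0.137 in Ad-PPARg replicates 1 to 4. In OPC it was 0.101, 0.169, 0.0800 and 0.0761 after Ad-GFP and 0.141, 0.0721, 0.0821 and 0.0976 after Ad-PPARg. In 15 of the 16 libraries the pooled rRNAs were thus counted at no more than 0.232 times the pooled level of the 3 mRNAs. In microglia Ad-PPARg replicate 1 they were at 1.39 times. Taken singly, 12S and 16S were above ND1 and ND2 there and below COX1 (4768 and 4763 against 6784 CPM per kilobase). In that library the mRNAs were not raised: ND1, ND2 and COX1 had 972, 736 and 10461 CPM, within the range of the other 15.

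On the log2 scale the ratio of rRNA to mRNA was -3.35 ± 0.44 in OPC and -2.56 ± 1.30 in microglia (SD, n = 8 each), a difference of -0.80 with a two-sided exact permutation p of 0.0782 (0.514 after Benjamini-Hochberg adjustment over 24 tests of 8 measures in 3 comparisons). Without microglia Ad-PPARg replicate 1 the difference was -0.36 (exact permutation p = 0.154). The ratio was lower in OPC in 5 of the 6 animals that gave both cell types. The share of counts on the rRNAs was lower in OPC in 6 of 6, by 0.0014 to 0.999 percentage points, the largest in the animal of microglia Ad-PPARg replicate 1. Taken singly on raw CPM, 16S rRNA was lower in OPC in 6 of 6 animals and 12S rRNA in 3 of 6. On the same scale ND2 was higher in OPC in 6 of 6, and ND1 and COX1 in 4 of 6 each. Between treatments the ratio differed by 0.58 in microglia (exact permutation p = 0.83) and by -0.09 in OPC (exact permutation p = 0.743), where 4 against 4 libraries allow no p below 0.0286. The value in microglia turned to -0.33 without Ad-PPARg replicate 1 (exact permutation p = 0.429) and to -0.47 without the libraries low past position 7000 (exact permutation p = 0.4). Without the 5 libraries low past position 7000 the difference between the cell types was -0.61 (exact permutation p = 0.0671).

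**Figure D4:**
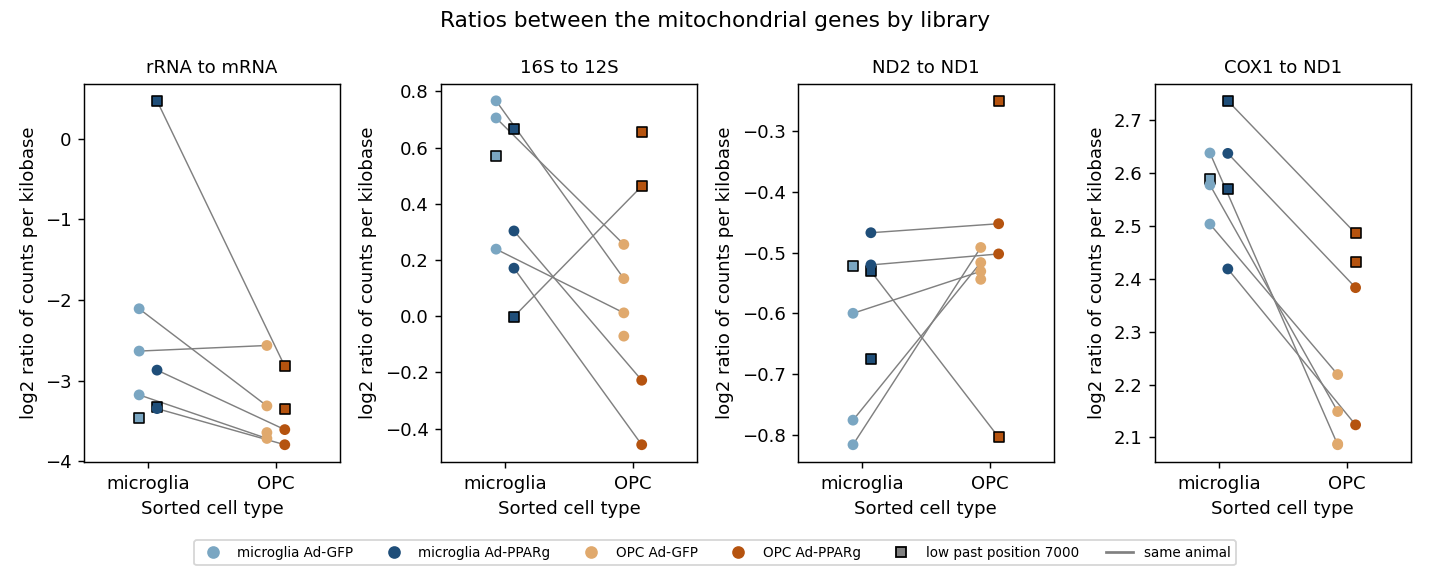
Log2 ratios of counts per kilobase by library for rRNA to mRNA, 16S to 12S, ND2 to ND1 and COX1 to ND1, microglia against OPC, with lines joining the libraries of the 6 animals that gave both and squares for the 5 libraries low past position 7000. All 6 lines of COX1 to ND1 fall from microglia to OPC, by 0.25 to 0.55, and the highest point of rRNA to mRNA is microglia Ad-PPARg replicate 1 at 0.47.

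The balance among the mRNAs differed between the cell types. COX1 relative to ND1, per kilobase, was 6.01, 6.22, 5.67 and 5.97 in microglia Ad-GFP replicates 1 to 4 and 6.66, 5.94, 6.22 and 5.35 after Ad-PPARg. In OPC it was 4.25, 4.66, 4.25 and 4.44 after Ad-GFP and 5.60, 5.22, 4.36 and 5.40 after Ad-PPARg. Microglia were higher, with an overlap between microglia Ad-PPARg replicate 4 (5.35) and OPC Ad-PPARg replicates 1 and 4 (5.60 and 5.40). Both OPC libraries are among those low past position 7000, and the microglia library is not. The log2 ratio was 2.25 ± 0.16 in OPC and 2.58 ± 0.09 in microglia (SD, n = 8 each), so that OPC had 0.79 times the microglial ratio (two-sided exact permutation p = 0.000466, adjusted p = 0.0112 over the 24 tests). It was the only measure of the 24 tests to pass. The treatment tests of 4 against 4 libraries allow no exact permutation p below 0.0286. A single one of them could thus not pass the adjustment over 24 tests, and their not passing is no sign of equal groups.

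Within animals, COX1 to ND1 was lower in OPC in 6 of 6, by 0.25 to 0.55 on the log2 scale. Sign flips of the 6 differences gave an exact permutation p of 0.03125, the smallest that 6 animals allow, and 0.25 after adjustment. Without the 5 libraries low past position 7000 the difference was -0.38 and the cell types did not overlap (exact permutation p = 0.00433, adjusted p = 0.0519). Within those 5 libraries, 2 OPC against 3 microglia, it was -0.17, again with no overlap (exact permutation p = 0.1, the smallest possible). Between treatments COX1 to ND1 differed by 0.01 in microglia and by 0.22 in OPC (exact permutation p = 0.943 and 0.0857). Without the libraries low past position 7000, which leaves 2 Ad-PPARg against 4 Ad-GFP, the value in OPC was 0.12 (exact permutation p = 0.267).

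The other ratios did not pass. 16S to 12S was 0.10 ± 0.36 in OPC and 0.43 ± 0.29 in microglia on the log2 scale (SD, n = 8 each; exact permutation p = 0.0626, adjusted p = 0.514), and without the 5 libraries low past position 7000 the difference of -0.33 became -0.50 (exact permutation p = 0.0108, adjusted p = 0.0866). ND2 to ND1 was -0.51 ± 0.15 in OPC and -0.61 ± 0.13 in microglia (SD, n = 8 each; exact permutation p = 0.168). The 4 OPC Ad-GFP libraries agreed closely in this ratio, at 0.686 to 0.711, while OPC Ad-PPARg spanned 0.573 to 0.841, with both ends in libraries low past position 7000. The OPC Ad-GFP libraries hold only 2 values of the first part of the animal identifier, and the Ad-PPARg libraries hold 3. None of the 8 measures differed between the cell types in its treatment effect (adjusted p of at least 0.722, exact permutation within each cell type).

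The share of the members in all counts was close in both cell types, 1.43% ± 0.361 in OPC and 1.43% ± 0.567 in microglia (SD, n = 8 each; exact permutation p = 0.983). Their share of the counts on mitochondrial genes of at least 200 bases was 45.8% ± 0.967 in 6 OPC and 51.4% ± 0.313 in 5 microglia libraries when those low past position 7000 were left out. These groups did not overlap (exact permutation p = 0.00216, the smallest possible, adjusted p = 0.0519), and in the 6 animals with both cell types the share was lower in OPC in 6 of 6. The animal of replicate 1 of both Ad-PPARg groups is among the 6. Both its libraries were low past position 7000, with shares of 99.53% in OPC and 99.65% in microglia. Over all 16 libraries, the means were 59.2% and 69.5% with SDs of 24.8 and 24.9 (exact permutation p = 0.283).

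Across all 16 libraries the members correlated more within a class (rRNA or mRNA) than between the classes, after the group means were removed from log2 CPM. 12S and 16S rRNA correlated at r = 0.96, ND1 and COX1 at 0.94, ND1 and ND2 at 0.89, and ND2 and COX1 at 0.81. Between an rRNA and an mRNA r was 0.58 to 0.75. These are descriptions over 16 libraries that share library totals and animals. Without microglia Ad-PPARg replicate 1 the classes were no longer apart: 16S rRNA and COX1 were at 0.789, and ND2 and COX1 at 0.786. Of 9584 genes outside the mitochondrial genome, those most like the summed rRNAs were ENSOCUG00000016359 on chromosome 1 (r = 0.91, and 0.79 without the 2 farthest libraries) and ENSOCUG00000004668 on chromosome 2 (0.89 and 0.69). Those most like the summed mRNAs were ENSOCUG00000005278 on chromosome 9 (0.88 and 0.77) and ENSOCUG00000011266 on chromosome 1 (0.87 and 0.69). The files give these 4 genes no name.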

How the data were processed

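RNA from sorted microglia and O4-positive OPC was sequenced as paired-end reads by a service company, as the labels' protocols state. Tools listed in the submitters' processing notes, with no roles, are bcl2fastq 2.17, STAR 2.5.2b and Subread 1.5.2. The authors deposited 1 file of raw read counts per library, in whole numbers and not normalized. The build, the annotation release, the strand setting, the handling of multi-mapped reads and the library preparation are not given in the sources. Reads shared by overlapping, antisense or near-identical genes may therefore have been split.

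A reference table of 38822 rabbit genes (mOryCun1.1) matched 0 of the files' identifiers and lists no mitochondrial gene. All rows name a gene. The members, lists and tests were chosen with earlier results of these data known. The named genes were the 5 members, and, as the genes most alike, the 2 non-mitochondrial genes with the highest Pearson r to the summed rRNAs and the 2 with the highest r to the summed mRNAs, on log2 CPM with group means removed.

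Treatment was compared within each cell type (8 libraries), and the cell types and the difference of effects over all 16, with edgeR 4.0.16 in R 4.3.3 (quasi-likelihood test, robust, TMM scaling, default filter on low counts, Benjamini-Hochberg adjustment over all genes tested at 0.05). The 5 members passed the filter in each fit. TMM factors were 0.766 to 1.35. The SE is the size of the log2 fold change divided by the square root of F. The fits were tested on simulated data. Shares and ratios used raw counts and two-sided exact permutation tests. Alternatives were DESeq2 1.42.0, other scalings, no filter, leaving out libraries, sums per identifier prefix (the first part of the animal identifier) and the animal as a block.

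Replicates were different animals by their identifiers, and chi-square per gene was 6.57 to 211 for the 24 within-group pairs, so none agreed within sampling noise. The block rests on the 6 animals that gave both cell types; over 14699 genes, the deviations of their paired libraries had a median r of 0.07 (-0.11 to 0.27).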

Additional observations from a re-analysis of the deposited data

Results flagged for a closer look

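Of 52 sets of 4 libraries (5 levels and 8 measures in 4 groups), 8 had a library whose gap to the nearest of the others exceeded Dixon's 95% critical share of the range of the set. Chance gives about 1 in 20 for a single set. The sets are not independent, since all use counts of the same 5 genes in the same libraries. The number flagged can therefore not be set against that rate. No cause was tested for any of the 8.

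The 1 animal that gave replicate 1 of both Ad-PPARg groups accounts for 7 of the 8. In its microglia library the 5 genes took 2.43% of all counts, where the other 3 libraries of the group had 0.892 to 1.11%. The rRNAs took 1.21% there against 0.0596 to 0.0990%, and the log2 ratio of rRNA to mRNA was 0.47 against -3.35 to -2.87. In its OPC library the 5 genes took 2.27% of all counts, where the other 3 had 1.17 to 1.20%. The rRNAs took 0.209% there against 0.0591 to 0.0777%, and the mRNAs took 2.06% against 1.11 to 1.14%. The log2 CPM of COX1 was 14.09 in that OPC library against 13.10 to 13.21. The microglia library thus stood apart through the rRNAs, and the OPC library through both classes.

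The remaining one is microglia Ad-GFP replicate 1, where the 5 genes took 99.4% of the counts on mitochondrial genes of at least 200 bases. The other 3 libraries of the group had 51.0 to 51.8%, and replicate 1 is the only one of them low past position 7000.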

How the results depend on the processing

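Of 853 values of 52 results under alternative settings, 759 were rated as unchanged. For fold changes and measures this meant the same direction and the same side of the threshold. For the numbers of genes or members called it meant an equal or similar number. With the animal as a replicate block (6 animals), OPC against microglia was -1.20 for 12S rRNA (edgeR adjusted p = 0.0216), -1.55 for 16S (0.00198), -0.48 for COX1 (0.0714) and -0.066 for ND2, reversed in sign. Paired by animal, the log2 ratio of COX1 to ND1 differed by -0.34 (adjusted p = 0.25, exact sign flips) and the share of the 5 genes by -0.0856 percentage points, reversed; the block changed no other call. DESeq2 called 121 genes in microglia, 7 in OPC and 2 for the difference of effects. Between the cell types it called 16S rRNA (adjusted p = 0.00554) and COX1 (adjusted p = 0.0361). It gave no p for 4 member values, all of rRNAs. These were 12S and 16S in microglia, 12S for the difference of effects and 12S between the cell types. The call of 12S between the cell types thus has no DESeq2 test beside it. Without a filter on low counts 4 genes were called in microglia.

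Upper-quartile scaling turned 12S in OPC to -0.0092 and ND1 between the cell types to 0.15. Raw library totals turned 12S in OPC to -0.017, and ND1 and COX1 between the cell types to 0.48 and 0.14. Summing by identifier prefix turned ND1 in OPC to 0.0044, and means by prefix turned the share of the 5 genes in microglia to 0.0354 percentage points and the log2 ratio of rRNA to mRNA in OPC to 0.016.

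Leaving out the 5 libraries low past position 7000 was chosen after seeing the data. It called 57 genes in microglia, 47 in OPC and 4 for the difference of effects, none a member. In microglia 12S was then at -0.93, 16S at -1.34, the rRNA share at -0.103 percentage points, the log2 ratio of rRNA to mRNA at -0.47 and that of COX1 to ND1 at -0.045. In OPC 12S was at -0.44, 16S at -0.88, COX1 at -0.25, and the shares of the 5 genes, the rRNAs and the mRNAs at -0.223, -0.0359 and -0.187 percentage points, with 16S to 12S at -0.43. The difference of effects was 0.48 for 12S, 0.45 for 16S and -0.00046 for ND2. Between the cell types ND2 was at -0.17, the share of the 5 genes at -0.0378 percentage points and COX1 to ND1 at -0.38.

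Leaving out each library in turn gave these ranges, with reversals in each. In microglia 12S ran from -0.93 to 1.90, 16S from -1.22 to 1.40, the share of the 5 genes from -0.547 to 0.00789, that of the rRNAs from -0.0831 to 0.300, rRNA to mRNA from -0.33 to 0.94 and COX1 to ND1 from -0.035 to 0.071. In OPC 12S ran from -0.45 to 0.22, 16S from -0.49 to 0.46, ND1 from -0.34 to 0.030, ND2 from -0.21 to 0.017 and COX1 from -0.15 to 0.30. There the shares ran from -0.222 to 0.146 for the 5 genes, from -0.0307 to 0.0206 for the rRNAs and from -0.191 to 0.128 for the mRNAs, with rRNA to mRNA from -0.28 to 0.16, 16S to 12S from -0.16 to 0.21 and ND2 to ND1 from -0.066 to 0.12. The difference of effects ran from -1.81 to 0.89 for 12S and from -1.25 to 1.34 for 16S. Between the cell types ND1 ran from -0.16 to 0.018, ND2 from -0.013 to 0.13 and the share of the 5 genes from -0.114 to 0.148. Genes called ran from 0 to 4 in microglia, 0 to 2 in OPC and 0 to 1 for the difference, and members called between the cell types from 0 to 3. COX1 to ND1 between the cell types kept its call each time (adjusted p 0.00746 to 0.0336). The cause of these changes was not tested. Depth limits none of the member values, and the spread between 4 libraries of a group limits all of them.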
